A study of Sus scrofa with 14 samples.

Results

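Gastric intrinsic factor (GIF, current symbol CBLIF) is the stomach protein that binds vitamin B12 and carries it to its receptor in the ileum. Its member here is the transcript row whose single symbol in the array annotation is GIF (row 15254585, NCBI gene 100514273), 1 of 27460 rows and 1 of 10912 named genes. RNA was measured on porcine whole-transcript arrays in the oxyntic mucosa (OXY), from the acid-secreting gland area along the greater curvature, and in the pyloric mucosa (PYL), from next to the sphincter. The 7 animals were unrelated male crossbred pigs (Large White x Landrace), weaned, of 5 to 6 weeks and a mean of 11.1 kg, kept on a standard feed for 5 days and killed after the morning meal. Each pig gave both mucosae, 14 arrays in all, without any treatment, so the comparison is between regions of the same stomach. The pieces were cut through the whole wall according to the study's methods, so they can hold muscle and submucosa.

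The cell that makes intrinsic factor differs between mammals. It is the parietal cell in humans and the chief cell in mice and rats, whereas in the pig classical work placed it in mucous cells of the pyloric glands. In the gut lumen the vitamin is first held by haptocorrin (TCN1), then by intrinsic factor, and after uptake transcobalamin (TCN2) carries it in blood. Inside cells it serves methionine synthase (MTR) and methylmalonyl-CoA mutase (MUT).

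All values are log2 of the deposited intensity, and a change is OXY minus PYL within a pig. The arrays form 2 sets, with a median log2 value of 4.83 to 4.92 in pigs 1 to 3 and of 5.63 to 5.73 in pigs 4 to 7, and no pig is split between them. The PYL arrays of the second set formed 2 pairs, with a Spearman correlation over rows of 0.989 between pigs 4 and 7, of 0.991 between pigs 5 and 6 and of 0.954 to 0.965 across the pairs. Which pair departs was not tested, so GIF is also given without each pair. For other genes the text names calls that were lost without pigs 5 and 6. Each of these calls held without pigs 4 and 7 (adjusted p from limma of 1.01e-04 for CELA1 to 0.0289 for GHRL). The parietal cell marker ATP4A was higher in OXY and gastrin (GAST) higher in PYL in every pig, as the labels of the 2 mucosae require. The limma test with the pig as a block called 6.88% of all rows higher in OXY and 4.46% higher in PYL at an adjusted p under 0.05, and 8.52% and 5.1% of the named genes.

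GIF gave a strong signal in both mucosae, with a lower value in OXY than in PYL of all 7 pigs. In OXY its log2 intensity was 7.37, 10.54, 10.25, 10.33, 9.07, 11.25 and 10.88 in pigs 1 to 7. In PYL of the same pigs it was 11.41, 11.25, 11.12, 10.92, 12.05, 12.19 and 11.17. The PYL values thus had a smaller range than the OXY values, and OXY of pig 1 and OXY of pig 5 stood below all other arrays. Within pigs 1 to 3 the groups did not overlap, with OXY at 7.37 to 10.54 and PYL at 11.12 to 11.41. Within pigs 4 to 7 they overlapped, with OXY at 9.07 to 11.25 and PYL at 10.92 to 12.19.

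**Figure D1:**
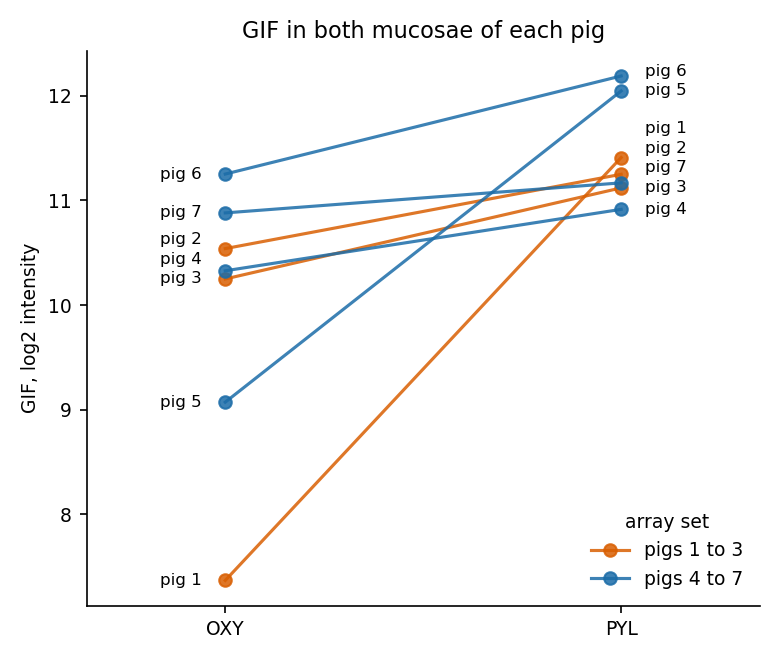
Log2 intensity of GIF (vertical axis) in OXY and PYL, with each line joining both mucosae of 1 pig and colors for the 2 array sets. All 7 lines run upward from OXY to PYL, and OXY of pigs 1 and 5 lies at 7.37 and 9.07, below every other array.

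The mean was 9.96 ± 1.33 in OXY and 11.44 ± 0.49 in PYL (SD, n = 7 pigs), a 2.80-fold higher intensity in PYL. The change was -1.49 log2 (SE 0.46, 95% interval -2.53 to -0.45) and missed the threshold, with an adjusted p of 0.075 from limma over all rows. Taken alone, the 7 differences gave p = 0.0156 in an exact two-sided sign-flip permutation test, the smallest that 7 pigs allow. Of the named genes, 48 had a larger change towards PYL than GIF, and 43 of these passed the test. The change of GIF itself was small in most pigs, at -0.71, -0.87, -0.59, -0.94 and -0.29 in pigs 2, 3, 4, 6 and 7. It was -4.04 in pig 1 and -2.97 in pig 5, a 16.4-fold and a 7.85-fold higher intensity in PYL, so the median over pigs was -0.87.

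GIF signal was close to the top of the array values in PYL, where saturation can shrink differences. Only 23 to 261 rows of a PYL array lay above it, against 165 to 4740 rows of an OXY array, the last in pig 1 (17.3% of its rows). The highest row of any array was at 12.56 to 12.93. How far saturation reduced the differences was not tested. In tissue RNA, fewer cells that make a transcript and less of it per cell cannot be told apart.

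The spread of GIF between pigs was above the median of genes of such signal in both mucosae. With the mean of each array set removed, its SD over pigs was 1.33 in OXY and 0.50 in PYL. Of the 344 other named genes with a mean within 1 log2 of that of GIF, 0 had a larger SD in OXY and 25 had a larger one in PYL. The median SD of these genes was 0.14 in OXY and 0.19 in PYL. The within-pig change of GIF had an SD of 1.43, against a median of 0.23 for the same genes, of which 0 had a larger one. Whether the spread differs between the mucosae was not tested.

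OXY of pigs 1 and 5 was also examined for some markers of gland cells. ATP4A, the catalytic subunit of the proton pump, was at 12.33 in OXY of pig 5, its highest value, and at 12 in OXY of pig 1, against 11.97, 12.07, 12.08, 12.21 and 11.93 in OXY of pigs 2, 3, 4, 6 and 7. These values lie near the array maximum, so differences in ATP4A between OXY arrays may be reduced. BHLHA15, a transcription factor of the chief cell, was at 7.52 and 7.11 in OXY of pigs 1 and 5, its 2 lowest OXY values, against 7.98, 7.91, 7.83, 8.10 and 7.85 in the others. Of other chief cell genes, PGC, PGA5 and CYM had their lowest OXY values in pig 1 (11.87, 12.49 and 10.29). In pig 5 they were at their OXY medians (12.31, 12.82 and 11.87), the lowest of pigs 4 to 7. Of gland mucous genes, MUC6 was at 10.34 and 10.11 in OXY of pigs 1 and 5, within 9.16 to 10.91 over all pigs. LYZ was at 10.11 and 9.83, within 9.66 to 11.63. By array set, LYZ in OXY was highest of pigs 1 to 3 in pig 1 and lowest of pigs 4 to 7 in pig 5. MUC6 was the lowest of its set in neither pig. These genes were singled out after the GIF values had been seen.

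The change of GIF averaged -1.87 ± 1.88 (SD, n = 3) in pigs 1 to 3 and -1.20 ± 1.21 (SD, n = 4) in pigs 4 to 7. An exact two-sided permutation of the set labels over the 35 possible splits gave p = 0.514 for the difference of -0.68, so a difference between the sets was not detectable with 7 pigs (smallest possible p = 0.0286). Without pigs 4 and 7 the change was -1.91 (adjusted p = 0.0517 from limma), and without pigs 5 and 6 it was -1.30 (adjusted p = 0.278). Without pig 1 it was -1.06 (adjusted p = 0.104) and without pig 5 it was -1.24 (adjusted p = 0.172). GIF passed with array weights, which give less weight to arrays that deviate from the fit, at -1.72 and an adjusted p of 0.0398. The methods' repeated-measures test passed for GIF taken alone and did not pass after Benjamini-Hochberg adjustment over all rows. The study applied that test to preselected genes, describes no adjustment over all rows, and listed GIF as higher in PYL.

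**Figure D2:**
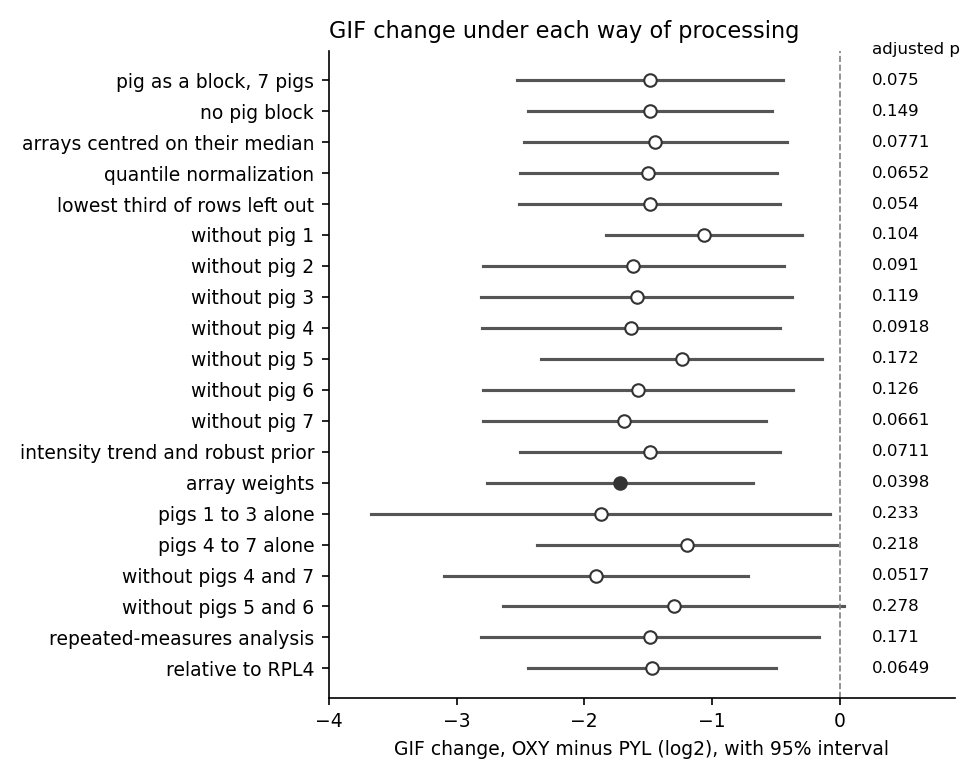
Change of GIF (horizontal axis, OXY minus PYL, log2) with its 95% interval under the ways of processing, and the adjusted p at the right. The test of a minimum change of 1 and the unadjusted repeated-measures test are not drawn. Filled points passed an adjusted p under 0.05, as with array weights (0.0398). Every point lies between -1.91 and -1.06.

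The other carriers of vitamin B12 did not pass the test either, and their changes were not tested against that of GIF. Haptocorrin (TCN1), which lies next to GIF in the pig RefSeq annotation (Sscrofa11.1), had 11.13, 11.59 and 11.85 in OXY and 11.38, 11.67 and 12.26 in PYL (lowest, median and highest of 7 pigs). Its mucosae overlapped, with a change of -0.14 (SE 0.09, adjusted p = 0.383 from limma), towards PYL in 5 of 7 pigs. As for GIF in PYL, these values are near the array maximum, so a difference may be reduced. In pig 1, where GIF had its lowest OXY value, TCN1 was at 11.59 in OXY and 11.49 in PYL. Transcobalamin (TCN2) was at 7.05, 7.95 and 8.14 in OXY and 6.99, 7.69 and 8.42 in PYL, a change of 0.11 (adjusted p = 0.62). MRPL16, a mitochondrial ribosomal protein gene and the next gene on the other side of GIF, had a higher OXY value in 7 of 7 pigs (change 0.75, SE 0.07, adjusted p = 3.23e-04). MRPL16 was added for its position and not by the rule for named genes.

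Among all genes of B12 binding, entry and use, 13 of 20 had a named row. Of these, 3 were higher in OXY, 1 was higher in PYL and 9 did not pass, beside 8.52% and 5.1% of all named genes. The median change of the 13 was 0.13, against -0.0018 over all named genes. The ileal receptor of the GIF-vitamin complex is made of CUBN and AMN, which are not analysed here.

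Of the genes of uptake and transport, ABCC1, an exporter that releases free vitamin B12 from cells, was higher in PYL. It had 6.65, 7.03 and 7.38 in OXY and 7.37, 7.64 and 7.94 in PYL (lowest, median and highest), and the higher PYL value was found in each of the 7 pigs. Its change was -0.62 (SE 0.06, adjusted p = 4.74e-04 from limma). ABCD4, which exports the vitamin from lysosomes, was higher in OXY with 7.01, 7.33 and 7.74, against 6.72, 7.03 and 7.33 in PYL (change 0.35, SE 0.06, adjusted p = 0.00569, and 0.0778 without pigs 5 and 6). LMBRD1, its partner in the lysosomal membrane, had a change of -0.30 and did not pass (adjusted p = 0.18). It passed without pig 7 (-0.41, adjusted p = 0.034) and without pigs 4 and 7 (-0.48, adjusted p = 0.0154). The endocytic receptor LRP2 was at 3.39 in OXY and 3.38 in PYL on average, below the median of every array, with a change of 0.01.

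Both genes of the mitochondrial branch that turns methylmalonyl-CoA into succinyl-CoA were higher in OXY. MUT, the enzyme that uses B12 there, had 8.74, 9.29 and 9.74 in OXY and 8.18, 8.44 and 9.20 in PYL (lowest, median and highest), and its change was 0.65 (SE 0.10, adjusted p = 0.00406 from limma). MCEE, the epimerase before it, changed by 0.55 (adjusted p = 0.0144, and 0.102 without pigs 5 and 6). It was at 3.61, 5.51 and 5.905 in OXY and 3.30, 4.97 and 5.48 in PYL. In pigs 1 to 3 its signal was low, below the median of each array. PCCB, a subunit of the carboxylase that feeds this branch, changed by 0.53 and stood at the threshold (adjusted p = 0.0502). MMACHC, which strips the ligand from incoming B12, changed by 0.35 (adjusted p = 0.0538), and MMAB, which makes the cofactor of MUT, by 0.22 (adjusted p = 0.391). The cytosolic user of the vitamin, MTR, changed by 0.13 (adjusted p = 0.753), with single pigs between -0.84 and 0.86.

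**Figure D3:**
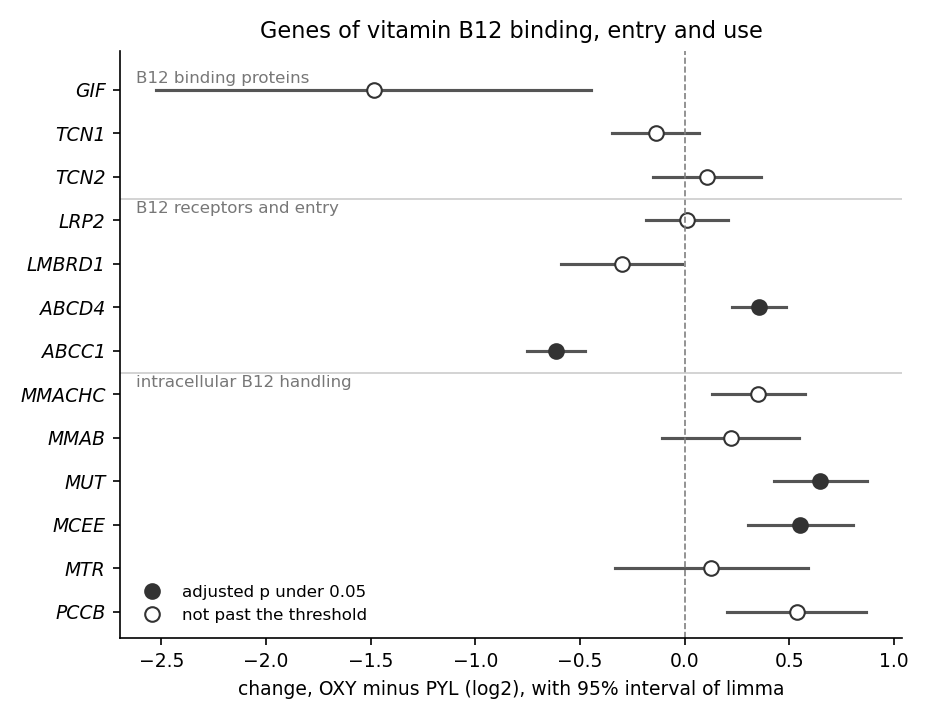
Change (horizontal axis, OXY minus PYL, log2) of the 13 measured genes of B12 binding, entry and use, with 95% intervals of limma over 7 pigs. Filled points passed an adjusted p under 0.05. MUT, MCEE and ABCD4 lie right of 0 and ABCC1 left of it, while GIF has the widest interval, -2.53 to -0.45.

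The direction of GIF was opposite to that of the pepsinogens, which chief cells secrete. Pepsinogen C (PGC) had a change of 0.90 (SE 0.16) and pepsinogen A (PGA5) one of 0.37 (SE 0.05), each higher in OXY in 7 of 7 pigs. The change of GIF lay below that of PGC in every pig, by differences between -4.66 and -1.30 log2 and with a mean of -2.39 ± 1.21 (SD, n = 7; exact sign-flip permutation p = 0.0156, 0.0219 adjusted over the 7 genes set against GIF). Against PGA5 the mean difference was -1.86 (adjusted exact p = 0.0219). In all 7 pigs GIF was lower and both pepsinogens were higher in OXY. Both p thus had to be the smallest possible and add nothing to these directions. In all, 4 of 6 measured genes of the chief cell list passed towards OXY and 0 towards PYL, with BHLHA15 at 2.87 and GPR155 at 3.49 besides the pepsinogens. Of all named genes, 8.52% passed towards OXY and 5.1% towards PYL. PGC and PGA5 were near the top of the array values in both mucosae, so the sizes of their changes are uncertain.

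Against ATP4A, whose change was 7.52, GIF lay lower in 7 of 7 pigs, by -9.01 ± 1.49 (SD, n = 7; adjusted exact p = 0.0219). This p too follows from the opposite directions of both genes in all 7 pigs. The size is uncertain, since ATP4A was near the array maximum in OXY and near or below the array median in PYL. All 13 measured genes of the parietal cell list were higher in OXY, beside 8.52% of all named genes. Their median change was 4.73, led by ATP4A, the channel subunit KCNE2 (6.25), the water channel AQP4 (6.51) and the proton pump subunit ATP4B (5.93). Their summed intensity was 12358 to 20020 in OXY and 1726 to 3382 in PYL. Neither the parietal nor the chief cell list had a gene that passed towards PYL. Which cells held the GIF transcript was not tested.

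Lysozyme (LYZ), a product of mucous cells of the glands, was higher in PYL like most of its list. It was at 9.66, 10.11 and 11.63 in OXY and 11.11, 11.54 and 12.35 in PYL (lowest, median and highest), with a change of -1.35 (SE 0.27, adjusted p = 0.0146 from limma), towards PYL in 6 of 7 pigs. The size depends on the row, as the mean of all LYZ rows gave -0.57 (adjusted p = 0.0418), and the row used here lost its call without pigs 5 and 6 (-1.003, adjusted p = 0.0956). It kept the call without pigs 4 and 7 (-1.749, adjusted p = 9.40e-04 from limma). The change of GIF minus that of LYZ was -0.14 ± 1.20 (SD, n = 7), with single pigs between -2.57 and 0.97 (exact p = 0.859), a range too wide to show that both changed alike. The gland mucin MUC6 had 0.77 (SE 0.34, adjusted p = 0.203), and GIF lay below it in 7 of 7 pigs by a mean of -2.26 ± 1.26 (adjusted exact p = 0.0219). Of the 8 measured genes of the gland mucous list, 5 were higher in PYL and 0 in OXY, beside 5.1% and 8.52% of all named genes. The others with large changes were BPIFB1, a secreted defense protein (-1.86), CD44, a cell surface receptor (-1.11, a call lost when pig 1, 3, 5 or 6 was left out, adjusted p = 0.0549 to 0.081), and the antral patterning factor PDX1 (-1.10). Without pigs 5 and 6 these calls were lost as well, with an adjusted p of 0.112 for BPIFB1, 0.152 for CD44 and 0.0911 for PDX1. Without pigs 4 and 7 they held, with an adjusted p from limma of 0.00943, 0.00581 and 3.38e-04 in the same order. The summed intensity of this list was 3068 to 10365 in OXY and 7147 to 16951 in PYL, higher in PYL in 6 of 7 pigs. Its part in the GIF difference was not tested. Of the 5 measured genes of surface mucous cells, 0 passed limma, 2 had p under 0.05 before adjustment and the median change was -0.14.

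The hormones of the antrum had the direction of GIF. Gastrin (GAST), which drives acid secretion, had a change of -5.08 (SE 0.40), and GIF differed from it by 3.60 ± 1.25 (SD, n = 7; adjusted exact p = 0.0219), since the change of GAST was the larger in each pig. Somatostatin (SST), which restrains gastrin and acid, had 8.16, 9.56 and 10.10 in OXY and 10.42, 11.47 and 12.19 in PYL, a change of -2.02 (SE 0.30), with an adjusted p of 0.00412 from limma and of 0.0587 without pigs 5 and 6. GIF differed from SST by 0.53 ± 0.96 (adjusted exact p = 0.237), with single pigs between -0.98 and 1.69. In pig 1, SST too had its lowest OXY value (8.16) and its largest change (-3.65). In pigs 4 and 7, one of the 2 pairs of like PYL arrays, the change was smallest in GIF (-0.59 and -0.29), in GAST (-3.12 and -3.54) and in SST (-0.82 and -1.08).

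**Figure D4:**
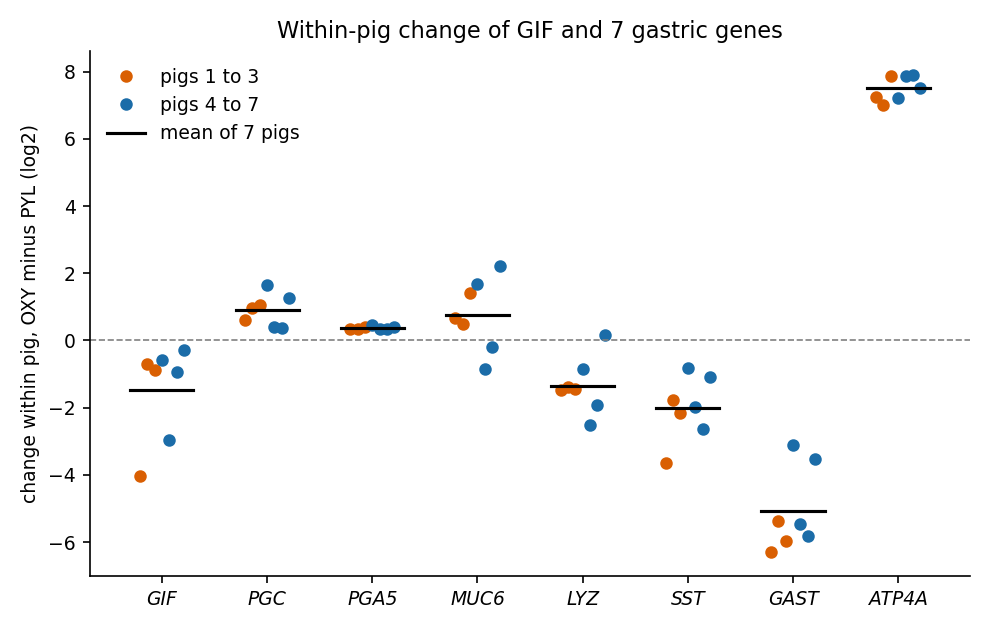
Within-pig change (vertical axis, OXY minus PYL, log2) of GIF and of 7 gastric genes, 1 point per pig with pigs 1 to 7 from left to right within each gene, colors for the 2 array sets and a bar at the mean. GIF, LYZ, SST and GAST have means below 0 (-1.49, -1.35, -2.02 and -5.08), PGC, PGA5, MUC6 and ATP4A above it.

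The changes of GIF were set against those of the 7 genes over pigs, and no relation passed adjustment over the 7 genes. Spearman's rho of the 7 changes with those of GIF was 0.893 for LYZ, 0.857 for SST, 0.821 for GAST and PGA5, 0.786 for PGC, 0.714 for MUC6 and -0.393 for ATP4A (exact permutation p = 0.0123, 0.0238, 0.0341, 0.0341, 0.048, 0.0881 and 0.396, adjusted p = 0.0597 for the first 4). Pearson's r was between 0.524 for MUC6 and 0.748 for SST, and -0.041 for ATP4A (adjusted exact permutation p = 0.261, and 0.913 for ATP4A). Without the 2 pigs farthest from the median of the other gene, r was 0.166 for LYZ, 0.297 for SST, 0.439 for GAST and 0.154 for MUC6, lower than over all 7 pigs. It was 0.736 for PGA5, 0.877 for PGC and 0.042 for ATP4A.

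Among the receptors of stimulants and inhibitors of gastric secretion, those that passed were higher in OXY. The histamine receptor HRH2 had 7.38, 8.28 and 8.66 in OXY and 4.73, 5.41 and 5.66 in PYL (lowest, median and highest), a change of 2.94 (SE 0.19, adjusted p = 6.96e-05 from limma). The gastrin receptor CCKBR was at 6.88, 7.80 and 8.09 in OXY and 2.79, 3.78 and 4.04 in PYL, a change of 4.12. The groups did not overlap in either gene. Of the receptors of inhibitors of acid secretion, the prostaglandin receptor PTGER3 changed by 4.02 and the somatostatin receptor SSTR1 by 1.24 (adjusted p = 0.0364). The SSTR1 call was lost when pig 1, 3, 4, 5, 6 or 7 was left out (adjusted p = 0.0541 to 0.0762) and without pigs 5 and 6 (0.117), and without pigs 4 and 7 the change was 0.68 (adjusted p = 0.00413). In all, 4 of 8 measured receptors of this list passed towards OXY and 0 towards PYL, beside 8.52% and 5.1% of all named genes. The changes of GHSR, CALCR, VIPR1 and the somatostatin receptor SSTR2 were 0.06, 0.01, -0.01 and -0.34. The acetylcholine receptor CHRM3 is not analysed here.

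The genes whose values followed GIF most closely over the arrays were found by Pearson's r over 14 arrays, with each gene centered on the mean of its array set. The arrays are pairs from 7 pigs, so r is a description. The 10 genes with the highest r were AUNIP (0.937), SMCP (0.889), NYAP2 (0.872), MIR148A (0.865), CDO1 (0.842), PON2 (0.819), LGR6 (0.819), PDILT (0.814), UCP3 (0.81) and LOC100511524 (0.809). Most of them hardly varied, and 8 of the 10 had an SD over the centered arrays under 0.5, where GIF had 1.18. Of the 10, 7 had a mean under 5, in the lower part of the array values. The list depends on the measure, as 3 of the 10 were also among the first 10 by Spearman's rho and 1 by r over the 7 within-pig changes. Without pig 1, 3 of the 10 stayed among the first 10.

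CDO1 and PON2 were the 2 genes of the 10 that passed the test between the mucosae. CDO1, the first enzyme of cysteine breakdown, had 3.79, 5.54, 5.15, 5.25, 3.69, 6.398 and 5.63 in OXY and 9.18, 6.56, 7.80, 6.403, 9.79, 9.52 and 6.00 in PYL of pigs 1 to 7. Its 2 lowest OXY values were those of pigs 5 and 1, the same arrays as for GIF. Its change was -2.83 (SE 0.71, adjusted p = 0.0358 from limma), with -5.39 in pig 1 and -6.10 in pig 5 and between -3.12 and -0.37 in the others. Its call was lost when pig 1, 3, 5 or 6 was left out (adjusted p = 0.0703 to 0.092) and without pigs 5 and 6 (-2.12, adjusted p = 0.185). Its r with GIF was 0.808 to 0.917 when each pig was left out in turn, and its Spearman's rho was 0.943. CDO1 was picked for its high r over these same arrays. These values and the shared low OXY arrays are therefore no separate support for a likeness. PON2, an intracellular lactonase that limits oxidative damage, had 6.64, 7.97 and 8.26 in OXY and 7.72, 8.61 and 9.31 in PYL (lowest, median and highest), a change of -0.88 (SE 0.11, adjusted p = 0.00145).

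**Figure D5:**
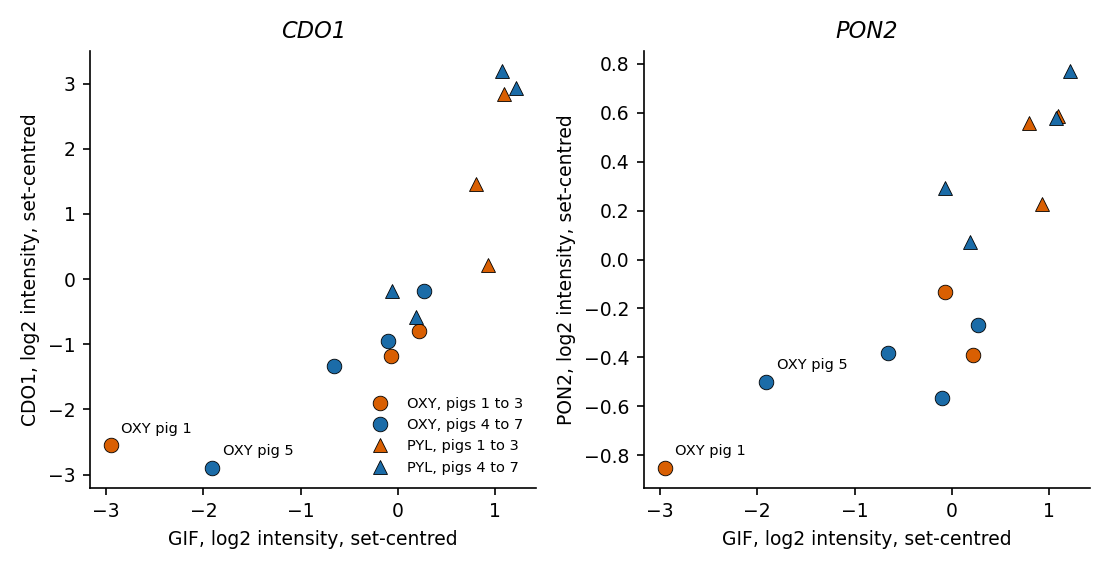
CDO1 (left) and PON2 (right) against GIF, log2 intensity after removal of the mean of each array set, with circles for OXY and triangles for PYL and colors for the array sets. OXY of pigs 1 and 5 lies at the low end of both axes for CDO1, and r over the 14 arrays is 0.842 for CDO1 and 0.819 for PON2.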

How the data were processed

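The authors hybridized total RNA on Affymetrix Porcine Gene 1.1 ST arrays and named a Robust Multichip Analysis in Expression Console. Per the files deposited by the authors, values were linear intensities of 27460 rows, used here as log2 with no further normalization. Symbols came from the platform annotation, with 1 symbol for 11982 rows and several for 373. A gene with several rows was represented by the row of highest mean. OXY and PYL were compared with limma 3.58.1 (R 4.3.3) with the pig as a block (the methods treat it as a repeated measure) and Benjamini-Hochberg adjustment over all rows at 0.05. The number of arrays limits the precision. The fit was tested on simulated data.

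Both arrays of a pig come from the same animal. Within the array sets, their deviations from the mucosa means correlated over rows by -0.03, 0.06, 0.16, 0.62, 0.23, 0.43 and -0.01 in pigs 1 to 7. Exact tests used the 7 within-pig differences (128 sign patterns).

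Members and 16 gene lists were chosen with earlier results of these data known. The counts of list members called, beside the share of all named genes, are therefore a description and no test of a list. Named in the text are GIF, the measured B12 genes, up to 4 members of each other list (limited, after values were seen, to called members) and the largest called the other way, the 7 measured genes set against GIF (TFF2 is not analysed here), and the 10 genes most and 5 least like GIF. Alternatives were no pig block, median centering, quantile normalization, a filter on low rows (1 in 3), leaving out pigs or sets, a trended robust prior, array weights, scaling to RPL4, a minimum change of 1, the methods' repeated-measures test and the mean of a gene's rows.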

Additional observations from a re-analysis of the deposited data

Results flagged for a closer look

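Among 57 sets of 7 values, GIF levels and the within-pig changes of GIF and of the other named genes, 3 had 1 pig whose distance to its neighbor was a large part of the whole range, and chance gives about 1 in 20. The change of ABCD4 was 0.13 in pig 2, below the other pigs. The change of MIR148A was -0.28 in pig 1, and that of LOC100519521 was 0.35 in pig 1, the pig with the largest GIF change. Both genes were picked for their r with GIF over these same arrays. Without pig 1 that r was 0.628 for MIR148A and -0.699 for LOC100519521, so the shared pig is no separate observation. For GIF this distance was 0.439 of the range in OXY, 0.161 in PYL and 0.284 for the change, which was not large enough to stand out.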

How the results depend on the processing

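The change of GIF was below 0 under all 21 alternatives, between -1.91 and -1.06, and 2 of them passed the threshold, array weights (-1.72, adjusted p = 0.0398 from limma) and the methods' repeated-measures test without adjustment (-1.49). GIF did not pass against a minimum change of 1. Its sign could not turn when pigs were left out, since all 7 pigs had a change below 0. Settings that alter the test alone, such as the trended robust prior, keep the estimate of -1.49. With each pig left out the change of GIF was -1.69 to -1.06, with adjusted p of 0.0661 to 0.172. Without the replicate block its adjusted p was 0.149, and the rows called were 326 higher in OXY and 150 higher in PYL, where the block gave 1888 and 1226. Pigs 1 to 3 alone gave 665 and 562, and pigs 4 to 7 alone 686 and 289. Without pigs 5 and 6, a setting chosen after seeing the data like that without pigs 4 and 7, they were 871 and 299, and GIF was -1.30 (adjusted p = 0.278). Without pigs 4 and 7 the rows called were 1843 higher in OXY and 1641 higher in PYL, and GIF was -1.91 (adjusted p = 0.0517 from limma). Leaving out 1 pig gave 1386 to 1705 higher in OXY and 690 to 1232 higher in PYL, with 784 without pig 1, 787 without pig 3 and 690 without pig 6.

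Of the B12 genes, 5 were higher in OXY with median centering, without the low rows or with array weights, 3 to 5 with 1 pig left out (5 without pig 2), 1 without pigs 5 and 6, and 0 without the pig block or in either set alone. Higher in PYL were 2 with array weights or without pigs 4 and 7, 1 to 2 with 1 pig left out (2 without pig 7), and 0 without the pig block. The difference of GIF from LYZ was -0.32 to 0.27 with 1 pig left out, above 0 only without pig 1. Changes near 0 turned sign, for TCN2 (-0.037) and MTR (-0.166) in pigs 4 to 7 alone, for MMAB (-0.017) and LRP2 (-0.003) in pigs 1 to 3 alone, and for LRP2 without pig 5 or 6 (range -0.061 to 0.054 with 1 pig left out, -0.004 without pig 6) and without both (-0.092). PDILT was at 0.0 without pigs 5 and 6. Of the 10 genes most like GIF, 3 remained with Spearman's rho, 1 with r over the changes and 3 to 7 with 1 pig left out (3 without pig 1 or 5, 6 without pig 6). The causes were not tested. For the 54 other named genes, 856 of 962 values kept direction and side of the threshold, 80 lost the call, 18 gained it and 8 turned sign.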

Other observations

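Genes that ran against GIF over the 14 centered arrays included AGXT2 (r of -0.898), SDSL (-0.89), LOC100519521 (-0.866), CAPRIN1 (-0.863) and LOC100620803 (-0.857). Of these 5, SDSL, an enzyme of serine and threonine breakdown by its family, passed between the mucosae, with a change of 0.40 (SE 0.09, adjusted p = 0.0282 from limma), higher in OXY in 7 of 7 pigs, a call lost when pig 2, 3, 5 or 6 was left out (adjusted p = 0.0512 to 0.0786) and without pigs 5 and 6 (0.176). Ghrelin (GHRL), the hunger hormone of the oxyntic glands, had its largest changes in the same pigs as GIF but in the other direction, with 3.50 in pig 1 and 3.63 in pig 5 and between 0.65 and 2.06 in the others. Its values there were 9.43 and 10.06 in OXY and 5.93 and 6.43 in PYL, so in GHRL the PYL arrays of these pigs were low, whereas in GIF their OXY arrays were. This was noticed after the values had been seen. The overall change of GHRL had an adjusted p of 0.00905 from limma, and of 0.0715 without pigs 5 and 6.

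For the lists that follow, the share over all named genes was 5.1% higher in PYL and 8.52% higher in OXY. Of 14 measured enteroendocrine genes, 7 were higher in PYL and 2 in OXY (GHRL and HDC), with SCGN at -2.71 (adjusted p = 0.0051, and 0.0593 without pigs 5 and 6) and NKX6-3 at -2.03 after GAST. Of 15 intestinal epithelium genes, VIL1 (-1.95) and SLC15A1 (-1.49) were higher in PYL. The SLC15A1 call was lost when pig 1, 2, 3, 5 or 6 was left out (adjusted p = 0.0753 to 0.104), and both calls were lost without pigs 5 and 6 (VIL1 0.0594, SLC15A1 0.179). The summed intensity of that list was 381 to 1364 in OXY and 898 to 2112 in PYL. The intestinal marker FABP1 had a change of -1.05 (adjusted p = 0.2), with -2.04, -2.79 and -2.78 in pigs 1 to 3 and between -0.47 and 0.62 in pigs 4 to 7. FABP2 and SI, at means of 3.05 and 2.54 in OXY and 3.11 and 2.44 in PYL, lay below the lowest array median of 4.83. Of 5 pancreatic acinar genes, CPA1 was higher in OXY (1.19) and CELA1 in PYL (-2.62, adjusted p = 0.0149, and 0.13 without pigs 5 and 6). Of 5 folate and methionine cycle, 5 smooth muscle, 9 lymphocyte and 5 red blood cell genes, 0 passed limma, and 1, 2, 0 and 1 of them had p under 0.05 before adjustment. Summed smooth muscle intensity was 2633 to 8399 in OXY and 3821 to 12553 in PYL. Of the 7 hormone and amine genes of the stimuli of secretion, 2 were higher in OXY (GHRL and HDC) and 2 in PYL (GAST and SST).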
